A study of Mus musculus with 8 samples.

Results

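The genes described here encode the enzymes that attach glutathione, glucuronic acid or sulfate to drugs, hormones and reactive by-products of metabolism, and the carboxylesterases that split their esters. They were taken from the array annotation by symbol: soluble glutathione S-transferases (Gst followed by a class letter and a number), microsomal glutathione S-transferases (Mgst), UDP-glucuronosyltransferases of families 1 and 2 (Ugt), sulfotransferases (Sult) and carboxylesterases (Ces). Of 19938 genes with a probe set of their own, 62 met this rule: 19 soluble and 3 microsomal glutathione S-transferases, 8 UDP-glucuronosyltransferases, 16 sulfotransferases and 16 carboxylesterases. No filter on low values was applied, so all 62 were tested.

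Values came from renal cortex of SPAK KO mice, which lack the kinase encoded by Stk39, and of WT littermates, with 4 arrays per genotype. The labels describe both groups as male C57Bl6J mice aged 10 weeks, genotyped from tail tissue and fed a diet with 0.32% NaCl and 1% KCl. The knockout is described only by the gene's name, and neither the deleted part of the gene nor the tissues affected are given in the sources used here. The stated aim was to find genes that might together limit salt loss by the kidney without SPAK.

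Conjugation makes small lipophilic molecules more water soluble, so that transporters of the proximal tubule and liver can excrete them. Glutathione S-transferases join electrophiles to glutathione, UDP-glucuronosyltransferases use UDP-glucuronic acid, and sulfotransferases use the activated sulfate PAPS. Carboxylesterases of the endoplasmic reticulum split ester and amide bonds in drugs and in lipids such as triacylglycerol. In kidney these enzymes are abundant in the proximal tubule, and several rodent members are known to differ between the sexes or to respond to fasting and to the oxidant-sensing factor NRF2.

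Stk39 was lower on every SPAK KO array, with log2 values of 6.79 to 7.21, against 8.11 to 8.60 in WT (difference −1.38 ± 0.11, limma adjusted p = 5.8e-04). The arrays of a group were not equally independent of each other. Among 6297 genes with a mean above 8, the 6 pairs of SPAK KO arrays differed by more than 0.4 log2 units in 1 to 10 genes and WT 2 with WT 3 in 3 genes, against 119 to 228 genes in the 5 other WT pairs. WT 2 and WT 3 were therefore counted as 1 sample in WT means ± SD (n = 3), and SPAK KO levels are given per array or as a range. The p-values come from the fit over all 8 arrays and measure the spread between these arrays, which may be partly technical. With the agreeing arrays counted once, which leaves 1 SPAK KO sample against 3 WT samples, limma called 0 of 19938 genes and 0 members, with 618 genes and 2 members at an unadjusted p under 0.05. The array medians were 6.09 to 6.12 in SPAK KO and 6.13 to 6.19 in WT, so they did not overlap.

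Promoter sequence from RefSeq (GRCm38.p6) was held for 55 of the 62 genes. It is shown for the 3 genes that passed the test below, as the 100 bases before the annotated start. Capitals mark letters that match the heptamer TGANTCA, bound by AP-1, or the core TGACNNNGC of the antioxidant response element, through which NRF2 acts, each searched on both strands.
Gstp1 (chr19:4037913-4038012, minus strand): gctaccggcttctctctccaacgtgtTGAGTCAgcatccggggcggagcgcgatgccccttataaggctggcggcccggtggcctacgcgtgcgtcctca
Mgst1 (chr6:138140427-138140526, plus strand): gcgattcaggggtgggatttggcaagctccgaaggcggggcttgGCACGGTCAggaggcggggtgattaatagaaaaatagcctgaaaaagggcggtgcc
Ugt2b34 (chr5:86906938-86907037, minus strand): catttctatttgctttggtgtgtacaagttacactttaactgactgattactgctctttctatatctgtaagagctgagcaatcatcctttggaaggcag
In Gstp1 the heptamer lay from −74 to −68 before the start, and in Mgst1 the core lay from −56 to −48, read on the opposite strand. Mgst1 has 2 annotated starts, and only the window of the first held the match. The Ugt2b34 window held neither motif. The heptamer was found in 2.73% and the core in 4.82% of 32851 RefSeq windows of this length, and among the 55 genes in 2 each, Gstp1 and Mgst2 for the heptamer and Gstm5 and Mgst1 for the core. The motifs and the windows shown were chosen after the array values and matches were seen, and a match describes letters, not binding.

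Across the 62 genes, Gstp1 and Mgst1 were higher in SPAK KO, Ugt2b34 was lower, and 59 did not pass (limma, Benjamini-Hochberg adjusted p under 0.05 over 19938 genes). Higher genes made up 3.23% of the members, against 1.39% of all genes tested, and lower genes 1.61% against 0.682%; in either direction 2.08% of all genes passed. The members' median log2 difference was 0.021 (SPAK KO minus WT), beside −0.013 over all genes. Differences are given in this direction throughout, ± their SE.

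How bright a probe set was went along with its direction. Over all genes, 64.5% of those with a mean of 8 or more had a difference above 0, against 27.8% of those with a mean under 6. Of the 27 members with a mean of 8 or more, 20 lay above 0, and all 3 calls were among the 27 (2 higher, 7.41%, against 2.41% of genes that bright, and 1 lower, against 0.731%). Of the 30 members with a mean under 6, 13 lay above 0 and 0 passed, with adjusted p of 0.307 or more. Probe set brightness depends on the probes as well as on the transcript, so levels are compared here only between arrays, for the same gene or the same summed list.

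**Figure D1:**
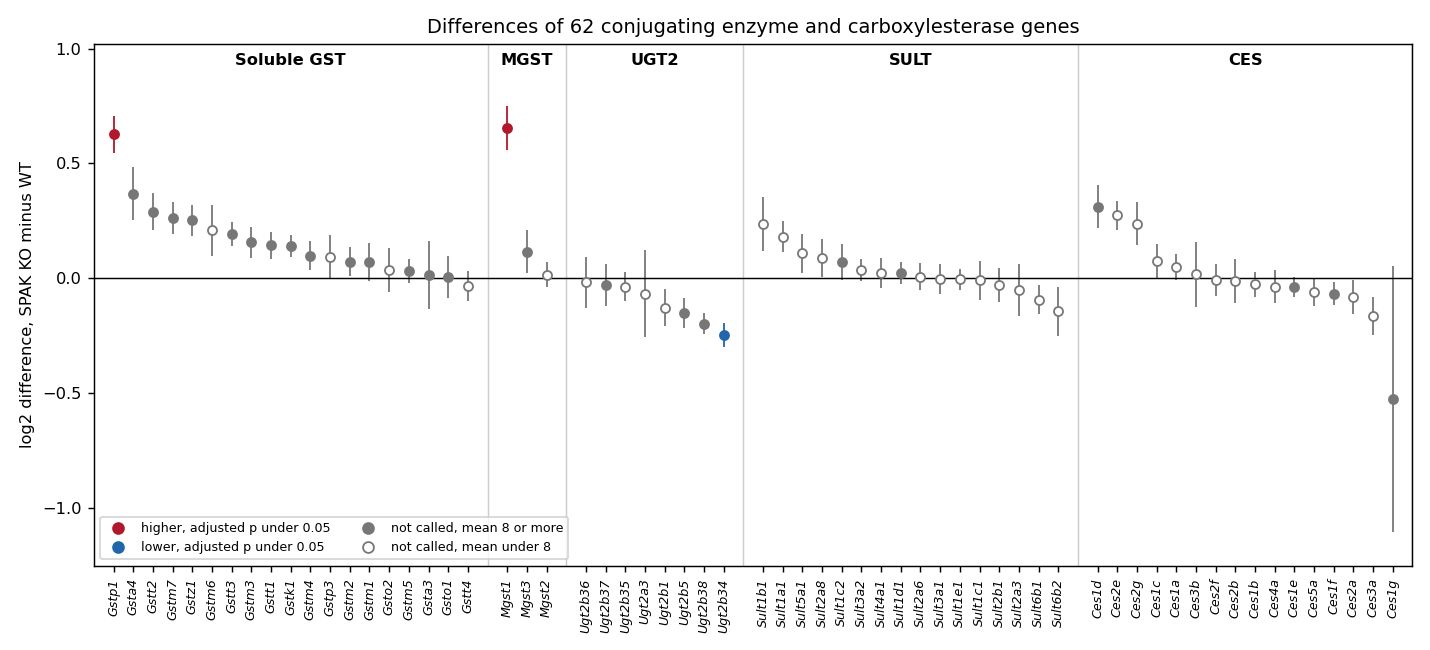
Log2 difference, SPAK KO minus WT, of each of the 62 genes on the vertical axis, grouped by family and sorted within it. Points are limma estimates with SE bars from 8 arrays. Red and blue mark adjusted p under 0.05 and filled points a mean of 8 or more. Gstp1 and Mgst1 stand highest at 0.63 and 0.65, all 8 UGT2 genes lie below 0, and Ces1g has the longest bar.

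Gstp1, the pi-class enzyme that conjugates electrophiles and binds stress kinases, was among the clearest differences of these families. Its log2 values were 11.28, 11.09, 11.05 and 11.17 on SPAK KO arrays 1 to 4, against 10.34, 10.58, 10.48 and 10.68 on WT arrays 1 to 4. Every SPAK KO array lay above every WT array, and WT 1 was the lowest of the 8. SPAK KO minus WT came to 0.63 ± 0.08 (SE, 8 arrays; limma adjusted p = 0.0046), or 1.55-fold, from a WT level of 10.52 ± 0.17 (SD, n = 3). It passed in 19 of the 20 alternative settings, the exception being agreeing arrays counted once (0.63, adjusted p = 0.9998). The annotation also places Gstp1 together with the near-identical Gstp2 on other probe sets, so the reading may include both. Gstp3, the other pi-class member, had a dim probe set (5.01 on average) and a difference of 0.094 ± 0.095 (limma adjusted p = 0.621).

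Mgst1, a membrane-bound enzyme of the endoplasmic reticulum and outer mitochondrial membrane that conjugates glutathione and reduces lipid peroxides, showed the largest increase of the 62. It read 9.04, 8.89, 8.87 and 9.09 on SPAK KO arrays 1 to 4, against 8.05, 8.30, 8.51 and 8.42 on WT arrays 1 to 4. The groups did not overlap, and WT 1 was again the lowest array. SPAK KO minus WT came to 0.65 ± 0.096 (SE, 8 arrays; limma adjusted p = 0.009), or 1.57-fold, from 8.29 ± 0.21 (SD, n = 3) in WT. It passed in the same number of settings as Gstp1, 19 of 20, with the same exception (0.68). Mgst3, a relative that can act on leukotrienes and peroxides, ranged over 9.23 to 9.62 in SPAK KO, against 9.10 to 9.39 in WT and gave 0.12 ± 0.093. SPAK KO 1 read 9.62 for that gene, and the other 3 SPAK KO arrays lay within the WT range. Mgst2, which can make leukotriene C4, gave 0.017 ± 0.056. Neither passed.

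**Figure D2:**
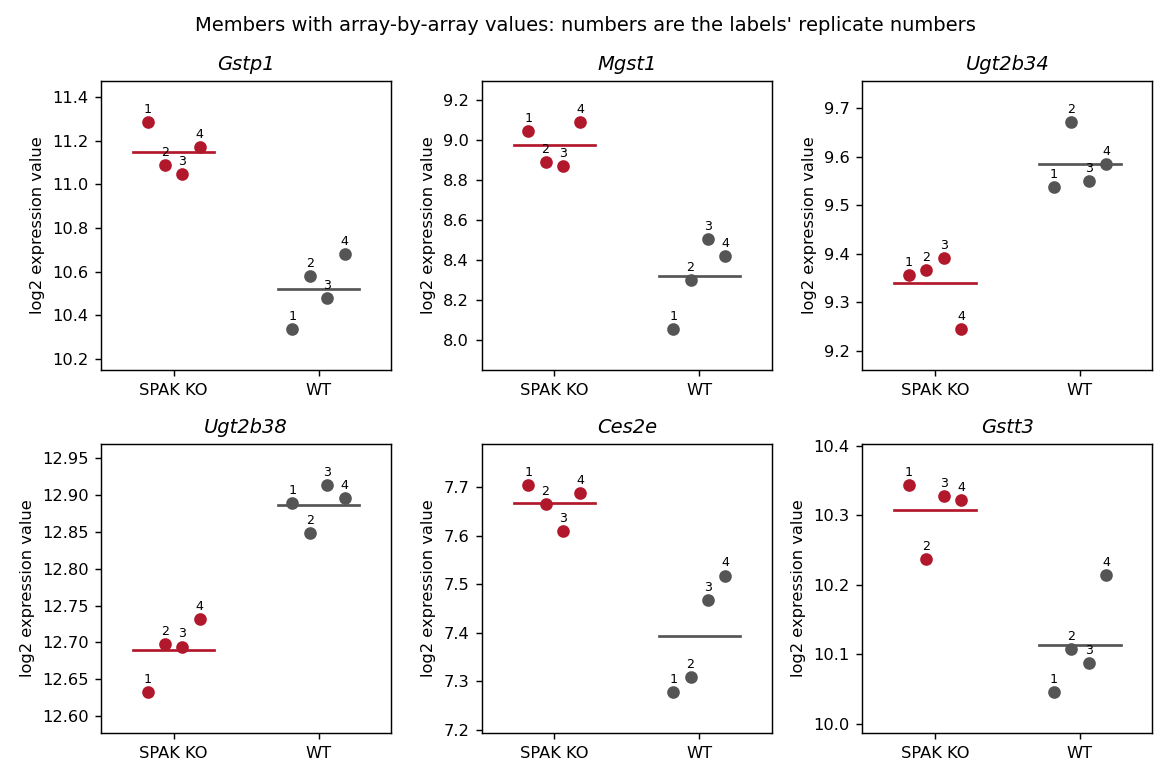
Log2 expression value on every array for 6 members, with SPAK KO on the left and WT on the right. Digits are the replicate numbers of the labels and lines the mean of the 4 arrays. In each panel the SPAK KO arrays lie on one side of all WT arrays. Gstp1, Mgst1 and Ugt2b34 passed the test, and Ugt2b38, Ces2e and Gstt3 did not.

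Most other soluble glutathione S-transferases had smaller differences of the same sign. Of all 19, 18 had differences above 0 and the family median was 0.14; 1 passed, 5.26% against 1.39% of all genes higher. All 15 with a mean of 8 or more lay above 0, where 64.5% of all genes that bright did. That count was 13 of 15 with quantile normalization again or cyclic loess, 12 without WT 1, 13 without WT 4 and 14 without SPAK KO 1 or SPAK KO 4. The 6 genes whose SPAK KO arrays all lay above all WT arrays were Gstp1, Gsta4, Gstm7, Gstt2, Gstt3 and Gstk1. In all, 9 of the 62 members were separated upwards in this way (14.5%, against 6.9% of all genes) and 2 downwards (3.23%, against 5.71%). Among genes with a mean of 8 or more the upward share was 25.9% of members (7 of 27), against 14.2% of genes, and the downward share 7.41% (2 of 27), against 5.78%.

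In the theta class, Gstt2 and Gstt3 gave 0.29 ± 0.079 (limma adjusted p = 0.0948) and 0.19 ± 0.053 (limma adjusted p = 0.0955). Gstt2 read 10.31, 10.22, 10.24 and 10.24 on SPAK KO arrays 1 to 4, against 10.07, 10.02, 10.05 and 9.71 on WT arrays 1 to 4, with WT 4 well below the rest. Gstt3 read 10.34, 10.24, 10.33 and 10.32 on SPAK KO arrays 1 to 4, against 10.05, 10.11, 10.09 and 10.21 on WT arrays 1 to 4, and WT 4 came nearest to the SPAK KO arrays. Gstt1 read 11.21 to 11.26 in SPAK KO, against 10.96 to 11.22 in WT and gave 0.14 ± 0.059, with WT 4 inside the SPAK KO range. Gstt4, a dim neighbour, gave −0.034 ± 0.066 and was the only soluble member below 0. The 4 theta genes lie next to each other in RefSeq.

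The 7 mu-class genes also form 1 uninterrupted run. Each had a difference above 0, from 0.032 to 0.26. Gstm7 was the largest and read 8.79, 8.72, 8.61 and 8.68 on SPAK KO arrays 1 to 4, against 8.27, 8.56, 8.39 and 8.52 on WT arrays 1 to 4. Its groups did not overlap, and its difference of 0.26 ± 0.071 (limma adjusted p = 0.0932) did not pass. Gstm1, the major mu-class enzyme of rodent liver and kidney, read 11.56, 11.49, 11.58 and 11.60 on SPAK KO arrays 1 to 4, against 11.25, 11.64, 11.61 and 11.44 on WT arrays 1 to 4. The SPAK KO values lay between WT 4 and WT 3, and the difference was 0.072 ± 0.083. Gstm2, Gstm4 and Gstm5 gave 0.072 ± 0.063, 0.099 ± 0.064 and 0.032 ± 0.052, each smaller than or close to the spread between the arrays of a group. Gstm6 was dim and gave 0.21 ± 0.11. For Gstm3, the brighter probe set gave 0.16 ± 0.067 and a second one, with a mean of 5.25, gave 0.019 ± 0.083, so its 2 probe sets differ in size of effect. Mu-class genes are close relatives, and the probes of 1 may detect another.

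Of the alpha class, Gsta4, which conjugates the lipid peroxidation product 4-hydroxynonenal, read 9.75, 9.82, 9.85 and 9.72 on SPAK KO arrays 1 to 4, against 9.08, 9.67, 9.60 and 9.32 on WT arrays 1 to 4. WT 1 and WT 4 were low, WT 2 came closest to the SPAK KO arrays, and the difference was 0.37 ± 0.12 (limma adjusted p = 0.131). Gsta3 read 9.47, 9.38, 9.38 and 9.52 on SPAK KO arrays 1 to 4, against 9.06, 9.74, 9.72 and 9.14 on WT arrays 1 to 4. Its SPAK KO arrays lay between WT 1 and WT 4 below and WT 2 and WT 3 above, and the difference was 0.017 ± 0.15. Gsta1 and Gsta2 share probe sets with other symbols and were not analysed here.

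Gstz1, the maleylacetoacetate isomerase of tyrosine breakdown, gave 0.25 ± 0.067 (limma adjusted p = 0.089). Its values were 10.82, 10.62, 10.73 and 10.76 on SPAK KO arrays 1 to 4, against 10.36, 10.46, 10.47 and 10.63 on WT arrays 1 to 4, and WT 4 touched the level of SPAK KO 2. Gstk1, the kappa-class enzyme of mitochondria and peroxisomes, differed by only 0.14 ± 0.047 (limma adjusted p = 0.153), though its SPAK KO arrays, 11.85 to 11.87, were above all WT arrays, 11.69 to 11.81. Gsto1 and Gsto2, omega-class enzymes that reduce dehydroascorbate and arsenic compounds, gave 0.007 ± 0.092 and 0.037 ± 0.097. For Gsto1 the WT arrays spread from 8.73 to 9.19 around the SPAK KO arrays.

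**Figure D3:**
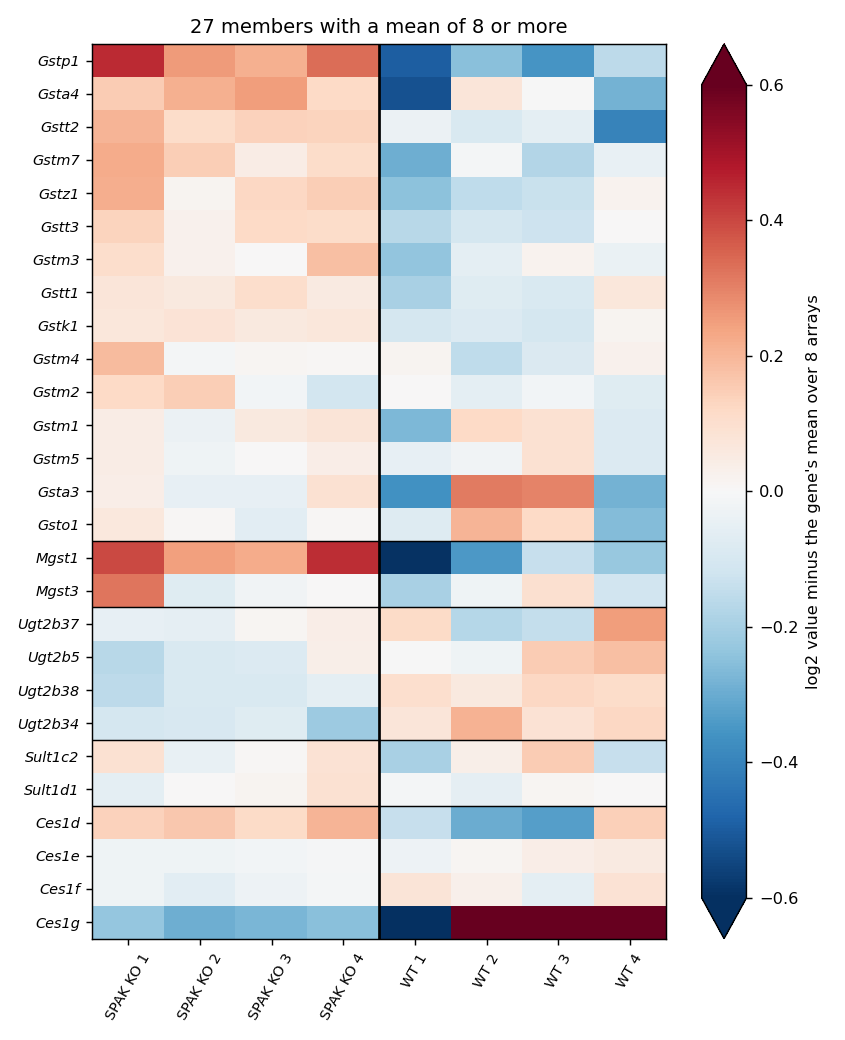
Log2 value minus the gene's own mean over 8 arrays, for the 27 members with a mean of 8 or more (rows, by family) on each array (columns, SPAK KO left of WT). Colours saturate at 0.6, which clips the WT values of Ces1g. Gstp1 and Mgst1 are red on every SPAK KO array and blue on every WT array, Ugt2b34 and Ugt2b38 show the opposite, and Gsta3 and Gsto1 split the WT arrays instead of the genotypes.

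The UDP-glucuronosyltransferases had differences of the opposite sign. All 8 measured genes belong to family 2, which conjugates steroids, bile acids and drugs, and form 1 run of neighbours in RefSeq. All 8 differences lay below 0 with a median of −0.096, and 1 passed (12.5% lower, against 0.682% of all genes). Of all genes, 45.8% lay above 0, with 27.8% of those with a mean under 6 and 64.5% of those with a mean of 8 or more. Among the 8, 4 had a mean under 6, where most genes lay below 0. With arrays centred on their median, quantile normalization again or cyclic loess, 5 of the 8 lay below 0, and without WT 4 it was 4 of 8. Of the 4 with a mean of 8 or more, all lay below 0, or 3 of 4 after centring and without WT 1 or WT 4. The 8 UGT1 symbols share 1 probe set and were not analysed here.

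Ugt2b34 read 9.36, 9.37, 9.39 and 9.25 on SPAK KO arrays 1 to 4, against 9.54, 9.67, 9.55 and 9.59 on WT arrays 1 to 4. Every SPAK KO array was below every WT array, and SPAK KO 4 was the lowest. SPAK KO minus WT came to −0.25 ± 0.054 (SE, 8 arrays; limma adjusted p = 0.0474), or 0.843-fold, from 9.58 ± 0.037 (SD, n = 3) in WT. That call passed in 8 of 20 settings and in 0 of the 8 leave-one-out fits, where the adjusted p ranged from 0.0519 to 0.138. It also ended with arrays centred on their median (−0.19, adjusted p = 0.0944), with WT 2 and WT 3 averaged (adjusted p = 0.0871), with the replicate block (adjusted p = 0.110) and with agreeing arrays counted once. Ugt2b38 also separated the groups, at 12.63, 12.70, 12.69 and 12.73 on SPAK KO arrays 1 to 4, against 12.89, 12.85, 12.91 and 12.90 on WT arrays 1 to 4. Its WT arrays agreed within 0.066, and the difference of −0.20 ± 0.046 (limma adjusted p = 0.0598) missed the threshold. It passed in 5 settings, with values between −0.21 and −0.14 over all 20.

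Ugt2b5, expressed in mouse kidney and liver, gave −0.15 ± 0.066 (limma adjusted p = 0.254) and overlapped between groups, 10.10 to 10.31 in SPAK KO, against 10.25 to 10.45 in WT. Ugt2b37 gave −0.027 ± 0.091. For that gene WT 2 and WT 3 read 11.75 and 11.78 and WT 1 and WT 4 read 12.04 and 12.17, with the SPAK KO arrays between them at 11.87 to 11.96. The other 4 members, Ugt2a3, Ugt2b1, Ugt2b35 and Ugt2b36, had means of 3.51 to 5.58 and differences of −0.13 to −0.017. Ugt2a3 had the second widest WT range of the 62, from 5.09 on WT 1 to 6.16 on WT 4, and 0.43 over the SPAK KO arrays.

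No sulfotransferase passed, with 9 of 16 above 0 and a median of 0.016 (smallest adjusted p = 0.188). At an unadjusted p under 0.05 there was 1 of 16. Sult1d1, an enzyme for catechols that is strongly expressed in mouse kidney, read 12.56, 12.62, 12.63 and 12.71 on SPAK KO arrays 1 to 4, against 12.60, 12.56, 12.63 and 12.62 on WT arrays 1 to 4, a difference of 0.024 ± 0.049. Sult1c2 gave 0.07 ± 0.078 and ranged over 11.02 to 11.15 in SPAK KO, against 10.87 to 11.22 in WT. Sult1a1, the phenol sulfotransferase, read 7.08, 7.17, 7.06 and 7.002 on SPAK KO arrays 1 to 4, against 6.72, 6.99, 6.96 and 6.92 on WT arrays 1 to 4. Its groups did not overlap and its difference of 0.18 ± 0.068 (limma adjusted p = 0.188) did not pass. Sult1b1, which acts on thyroid hormones, gave 0.24 ± 0.12 (limma adjusted p = 0.307) on a dim probe set. The 12 other members, among them the estrogen sulfotransferase Sult1e1 at −0.0038 ± 0.046 and the cholesterol sulfotransferase Sult2b1 at −0.028 ± 0.075, had means under 6 and differences of −0.14 to 0.11. Dim probe sets have no stated floor here, so these values do not say whether the genes were expressed.

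No carboxylesterase passed either. Of 16 genes, 6 lay above 0, and the median of −0.018 turned to 0.041 with arrays centred on their median, 0.041 with quantile normalization again and 0.036 with cyclic loess. Ces2e, a family 2 enzyme, came nearest. It read 7.70, 7.67, 7.61 and 7.69 on SPAK KO arrays 1 to 4, against 7.28, 7.31, 7.47 and 7.52 on WT arrays 1 to 4, without overlap, and gave 0.27 ± 0.063 (limma adjusted p = 0.0598); it passed in 5 of 20 settings. Its neighbour Ces2g read 7.23 to 7.52 in SPAK KO, against 6.96 to 7.37 in WT and gave 0.24 ± 0.093 (limma adjusted p = 0.206), with WT 4 at the level of SPAK KO 1. Ces2a, Ces2b and Ces2f gave −0.082 ± 0.075, −0.01 ± 0.095 and −0.009 ± 0.07. The Ces3, Ces4 and Ces5 genes Ces3a, Ces3b, Ces4a and Ces5a gave −0.16 ± 0.081, 0.018 ± 0.14, −0.036 ± 0.071 and −0.058 ± 0.061, and a second, dimmer Ces5a probe set gave 0.051 ± 0.056. Ces2b was highest on WT 1, at 7.93, and at 7.46 to 7.55 on the other WT arrays.

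The 7 Ces1 genes are neighbours in RefSeq, and they differed widely in how they varied. Ces1d, a hydrolase of stored triacylglycerol also known from fat tissue and liver, read 11.95, 11.97, 11.93 and 12.02 on SPAK KO arrays 1 to 4, against 11.67, 11.51, 11.48 and 11.95 on WT arrays 1 to 4. WT 4 matched the SPAK KO arrays and the other 3 WT arrays lay below, and the difference was 0.31 ± 0.094 (limma adjusted p = 0.121). Without WT 4, the WT array nearest to SPAK KO, it was 0.41 and passed (limma adjusted p = 0.0101). With arrays centred on their median it was 0.37 and also passed (limma adjusted p = 0.0482). The call therefore rested on which arrays were kept and on the normalization. Ces1e and Ces1f, next to it, stayed within 0.14 log2 units over the WT arrays and gave −0.039 ± 0.044 and −0.066 ± 0.049. Ces1a, Ces1b and Ces1c were dim, with differences of −0.026 to 0.074.

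Ces1g, a carboxylesterase best known from liver lipid metabolism, had the widest WT spread of the 62. It read 8.15, 8.09, 8.11 and 8.13 on SPAK KO arrays 1 to 4, against 6.40, 9.44, 9.51 and 9.22 on WT arrays 1 to 4. WT 1 minus the mean of the other 3 WT arrays was −2.99, and the SPAK KO arrays lay between, within 0.060 of each other. Over all 19938 genes, 1 had a wider WT range than the 3.11 of Ces1g. The WT level was 8.36 ± 1.71 (SD, n = 3). The difference of −0.52 ± 0.58 (limma adjusted p = 0.652), taken from the mean of all 4 WT arrays, 8.64, did not pass. With the agreeing arrays counted once it was −0.25. The sign was the same in all 20 settings, but the size went from −1.27 to −0.24. WT 1 decided this: leaving it out gave −1.27 ± 0.070 over 7 arrays (limma adjusted p = 8.4e-05), which passed.

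**Figure D4:**
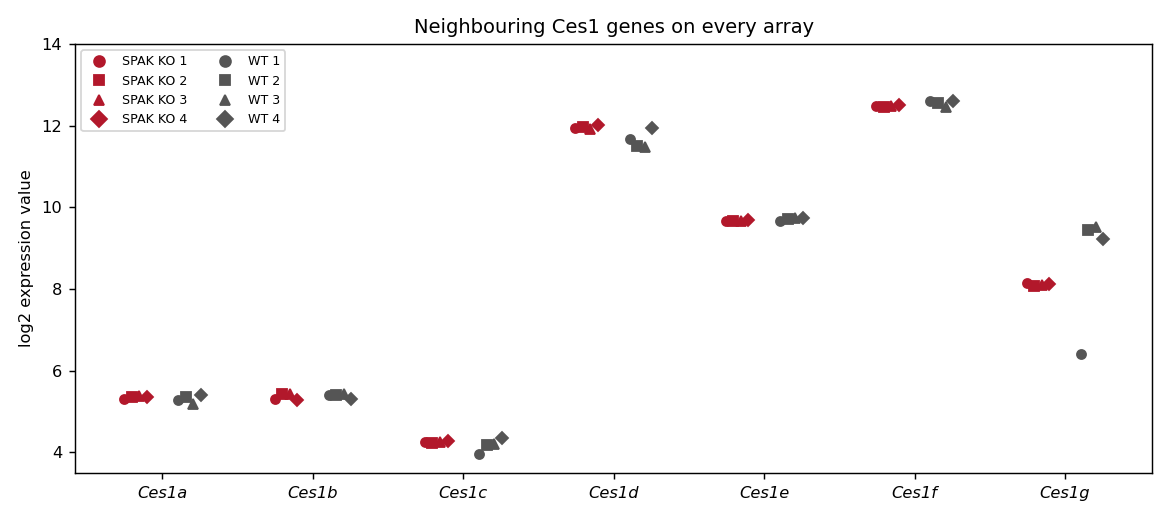
Log2 expression value (vertical axis) of the 7 neighbouring Ces1 genes on every array, SPAK KO in red to the left and WT in grey to the right of each gene, with a marker shape per replicate number. Ces1g alone spreads over 3.11 log2 units in WT, with WT 1 at 6.40, while its SPAK KO arrays lie between 8.09 and 8.15.

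The wide spread was not limited to Ces1g. Among the 27 members with a mean of 8 or more, 7 had a WT range over 0.4 log2 units and 0 had a SPAK KO range that wide. The WT range exceeded the SPAK KO range in 20 of these 27 (74.1%), a share close to the 75.5% of all genes that bright. WT 1 was the lowest WT array for 15 of the 27, and for 9 of the 15 soluble glutathione S-transferases. That share was not counted over all genes that bright, so the counts may not be particular to these families. Among the 6297 genes with a mean above 8, WT 1 differed by more than 0.4 from WT 2, WT 3 and WT 4 in 212, 228 and 217. WT 4 differed from WT 2 and WT 3 in 162 and 119. After Ces1g, WT 1 stood lowest against the mean of the other WT arrays for Gsta3 (−0.47), Gsta4 (−0.45), Mgst1 (−0.35), Gstm1 (−0.31) and Gstp1 (−0.24). Without WT 1, Gstp1 gave 0.57 (limma adjusted p = 0.0062) and Mgst1 0.56 (limma adjusted p = 0.0073), and both still passed.

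**Figure D5:**
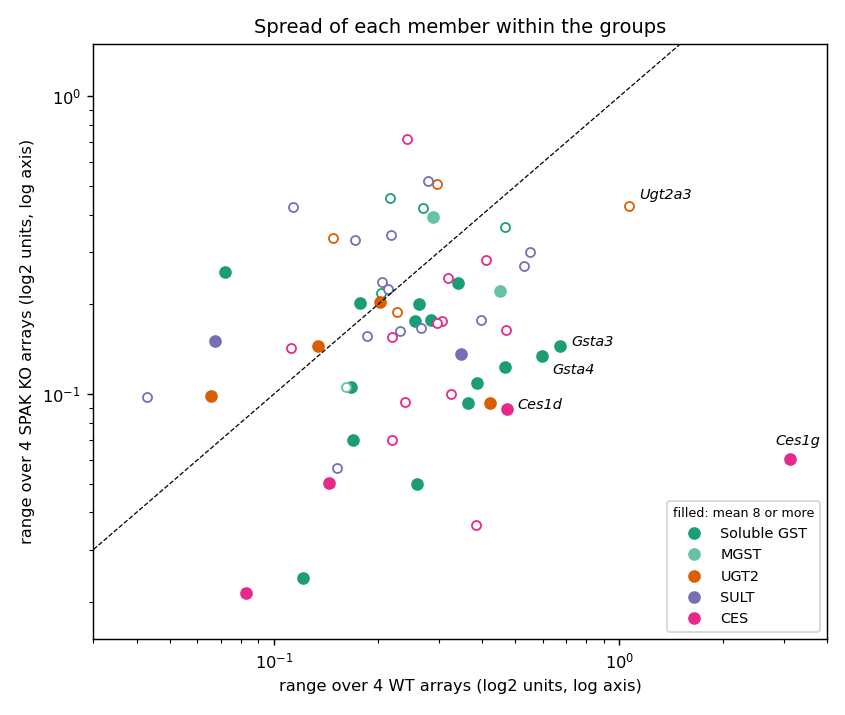
Range over the 4 SPAK KO arrays (vertical) against the range over the 4 WT arrays (horizontal) for each of the 62 genes, in log2 units on log axes, coloured by family. Filled points have a mean of 8 or more and the dashed line marks equal ranges. Ces1g lies far to the right at 3.11 in WT and 0.060 in SPAK KO.

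Each list of other genes of the same pathways, taken by function, held 0 or 1 call, where 1.39% of all genes were higher and 0.682% lower. Of 21 genes of glutathione supply and turnover, 1 was higher and 0 lower: Glo1, which uses glutathione to clear methylglyoxal, read 9.83 to 9.94 in SPAK KO, against 9.54 to 9.65 in WT and gave 0.26 ± 0.049 (limma adjusted p = 0.0253). The list's median was 0.040. Gclc and Gclm, the subunits of the rate-limiting enzyme of glutathione synthesis, gave −0.15 ± 0.13 and 0.04 ± 0.043 and did not pass. Of 7 genes of UDP-glucuronic acid supply and glucuronide removal, 0 were higher and 1 lower (median 0.015). That gene was Gusb, the lysosomal β-glucuronidase that removes glucuronic acid, at 7.60 to 7.71 in SPAK KO, against 7.93 to 7.97 in WT and a difference of −0.28 ± 0.046 (limma adjusted p = 0.0147). Ugdh, which makes UDP-glucuronic acid, gave 0.084 ± 0.053.

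Of 12 genes of sulfate donor supply and sulfate removal, 0 passed (median −0.0049), with the PAPS synthases Papss2 and Papss1 at 0.17 ± 0.053 and −0.14 ± 0.053. Of 18 other conjugating enzymes, 0 were higher and 1 lower (median 0.0043). Acsm3, a medium-chain acyl-CoA synthetase, read 11.97 to 12.03 in SPAK KO, against 12.37 to 12.52 in WT and gave −0.42 ± 0.05 (limma adjusted p = 0.0037). Of 14 other esterases and epoxide hydrolases, 0 passed (median 0.036), with the epoxide hydrolase genes Ephx1 and Ephx2 at 0.27 ± 0.069 and −0.15 ± 0.044. Their groups were apart in opposite directions.

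Among 14 regulators of conjugation genes, 1 was higher and 0 lower (median −0.0046). Ppara, the fatty acid-sensing receptor that acts during fasting, read 10.04 to 10.09 in SPAK KO, against 9.64 to 9.81 in WT and gave 0.33 ± 0.051 (limma adjusted p = 0.0113). Nfe2l2, which encodes NRF2, and Keap1, its inhibitor, gave 0.17 ± 0.056 (limma adjusted p = 0.137) and −0.23 ± 0.066 (limma adjusted p = 0.103). Of 14 other NRF2 target genes, 0 passed (median 0.027). Cbr1, a carbonyl reductase, and Osgin1 came nearest at 0.39 ± 0.095 and −0.26 ± 0.071, and Nqo1, a quinone reductase, gave 0.25 ± 0.096. Of 12 genes of the fasting and PPAR-alpha response, 1 was higher and 0 lower (median 0.23), the fatty acid hydroxylase gene Cyp4a31 at 0.33 ± 0.065 (limma adjusted p = 0.03). Of the 12, 10 lay above 0, against 45.8% of all genes and 64.5% of those with a mean of 8 or more. Of the same 12, 6 had every SPAK KO array above every WT array, against 6.9% of all genes and 14.2% of those with a mean of 8 or more. Acot1, 1 of these 6, had a mean of 6.89, below 8. Pdk4, the kinase that restrains pyruvate oxidation in fasting, had the largest difference of the list at 1.04 ± 0.35 (limma adjusted p = 0.147) and did not pass. It read 8.69, 8.55, 8.59 and 8.58 on SPAK KO arrays 1 to 4, against 8.87, 7.13, 7.32 and 6.92 on WT arrays 1 to 4, so WT 1 lay above the SPAK KO arrays and the other 3 WT arrays below them.

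Marker lists of the proximal tubule and of other cells were read beside these genes. Over all genes, 1.39% were higher and 0.682% lower. Sums of linear levels weigh the brightest probe sets most. For 17 proximal tubule markers, 1 was higher, Aqp1 at 0.34 ± 0.058 (limma adjusted p = 0.0164), and the summed linear level was 108261 to 108961 in SPAK KO and 100635 to 107293 in WT, without overlap. The brightest of the 17, Slc34a1, Kap and Miox, gave −0.0013 ± 0.044, 0.024 ± 0.045 and 0.015 ± 0.043. Pck1 had the largest difference of the list, 0.53 ± 0.20 (limma adjusted p = 0.197). On WT 2 and WT 3 Pck1 read 11.52 and 11.58, against 12.43 and 12.46 on WT 1 and WT 4. Of the 17, 11 lay above 0, 4 had every SPAK KO array above every WT array, and 2 had every one below, Slc5a2 (−0.17 ± 0.068) and Hnf4a (−0.081 ± 0.044). All 17 had a mean of 9.50 or more. Of all genes with a mean of 8 or more, 64.5% lay above 0, 14.2% were separated upwards in this way and 5.78% downwards. For 7 liver markers, 1 was higher, Fga at 0.32 ± 0.057 (limma adjusted p = 0.0229), and the sums were 5303 to 5514 in SPAK KO and 3501 to 5244 in WT, without overlap. Ttr, the brightest of the 7 with a mean of 11.86, weighs most in that sum. Its own groups overlapped, with WT 4 at 12.08 inside the SPAK KO range of 12.06 to 12.12. The liver list went both ways. Of the 7, 5 lay above 0, against 45.8% of all genes, with albumin (Alb) at 0.55 ± 0.13 and Ttr at 0.46 ± 0.13. For 3 of the 7, Fga, Alb and Apoc3 (0.26 ± 0.062), every SPAK KO array lay above every WT array, against 6.9% of all genes. For 1 of the 7, Ahsg at −0.31 ± 0.087, every SPAK KO array lay below every WT array, against 5.71% of all genes. Fgb was at −0.02 ± 0.11. For 6 perirenal fat markers, 1 was higher, Retn at 0.31 ± 0.067 (limma adjusted p = 0.0467), and the sums were 678 to 714 in SPAK KO and 593 to 660 in WT, also without overlap. Fabp4, the brightest of the 6 with a mean of 8.70, weighs most in that sum. For 9 immune cell markers, 1 was lower, Cd3e at −0.31 ± 0.065 (limma adjusted p = 0.0443), with sums of 1006 to 1057 in SPAK KO and 1010 to 1063 in WT. For 8 endothelium markers 0 passed, with sums of 5511 to 5794 in SPAK KO and 5798 to 6043 in WT, again without overlap. Emcn, the brightest of the 8, weighs most in that sum. It gave −0.12 ± 0.052, and its own groups overlapped. Of the 8, all with a mean of 8.19 or more, 2 lay above 0, Pecam1 at 0.079 ± 0.046 and Cdh5 at 0.046 ± 0.054. For 0 of the 8 did every SPAK KO array lie above, or below, every WT array. The 6 genes listed as medulla markers are not all limited to medulla, so their values do not measure medulla content. Of these 6, 1 was lower, Aqp2 at −0.29 ± 0.063 (limma adjusted p = 0.0447), with sums of 12501 to 12940 in SPAK KO and 11852 to 12045 in WT. This sum was higher in SPAK KO without overlap, opposite to Aqp2. Umod, the brightest of the 6 with a mean of 13.01, weighs most in it, so the sum does not stand for the list. Slc14a1 and Scnn1g gave −0.047 ± 0.058 and 0.047 ± 0.069, with overlap. Slc12a1 (0.24 ± 0.054 (limma adjusted p = 0.052)) and Umod (0.098 ± 0.043) lay above every WT array on all SPAK KO arrays, and Aqp2 and Slc14a2 (−0.21 ± 0.054) below. The part of these shifts in the differences of Gstp1, Mgst1, Ugt2b34 and the glutathione S-transferases was not tested. In whole cortex, more cells of a type and more RNA per cell cannot be told apart.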

How the data were processed

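Total RNA from renal cortex was labelled (6 µg per array) and hybridised to 8 Affymetrix arrays, 4 per genotype. The deposited values are log2 expression values, and the submitters' processing notes name RMA and Affymetrix Expression Console as the tools the authors used. The software version, genome build and any filter are not given in the sources used here, and arrays carry no read depth, so their number limits the precision. Of 35556 probe sets, 21789 had 1 gene symbol in the platform annotation, 1621 had several and 12146 had none. Genes were taken from probe sets with 1 symbol, the one with the highest mean for each gene. For 10 probe sets with several symbols, holding 18 symbols of these families, no gene was named.

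SPAK KO was compared with WT over all 19938 genes with limma 3.58.1 (statmod 1.5.0, R 4.3.3; lmFit and eBayes, genotype as the only term, Benjamini-Hochberg adjustment, threshold 0.05). The script was tested on simulated data. Tables and plots were made with Python 3.11.15, pandas 2.3.3 and matplotlib 3.10.9. Promoter windows came from RefSeq. The alternatives covered normalization, centring, filters on dim genes, probe set choice, the variance model, the replicate block, agreeing arrays and leaving out each array.

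The members and gene lists were chosen with earlier results of these data known. The rule for named genes took Stk39, the members that passed, the 6 largest differences in each direction, the 10 highest means, the 10 widest WT ranges and the 2 highest means of each family or class. From each pathway list it took those that passed or else the 2 with the smallest p. Other members are named to account for all 62, and Gclc, Gclm, Ugdh, Nfe2l2, Keap1, Nqo1, Pdk4 and the marker genes were named after their values were seen.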

Additional observations from a re-analysis of the deposited data

Results flagged for a closer look

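In 6 of 124 groups of 4 arrays (62 genes in each genotype), 1 array stood apart from the others by more than Dixon's 95% critical value for 4 samples, where chance gives about 1 in 20. The value is the gap to the nearest array as a share of the group's range. Among SPAK KO arrays, Ces2f was low on SPAK KO 2 (5.19, others 5.28 to 5.29; 0.895), Gstm4 was high on SPAK KO 1 (9.75, others 9.55 to 9.57; 0.868) and Ugt2b36 was high on SPAK KO 2 (4.20, others 3.69 to 3.78; 0.836). Among WT arrays, Ces1g was low on WT 1 (6.40, others 9.22 to 9.51; 0.907), Gstt2 was low on WT 4 (9.71, others 10.02 to 10.07; 0.851) and Sult2a8 was high on WT 3 (3.42, others 3.20 to 3.21; 0.931). Ces1g had by far the widest gap of the 6 in log2 units, while for Ces2f, Gstm4 and Sult2a8 the whole range of the group was 0.22 or less.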

How the results depend on the processing

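The 414 calls over all genes became 761 with arrays centred on their median (673 higher and 88 lower, against 278 and 136), 664 with means under 6 left out, 764 with a variance trend, 253 with WT 2 and WT 3 averaged and 0 with agreeing arrays counted once. Leaving out 1 array gave 156 to 625 (156, 197, 188 and 164 without SPAK KO 1 to 4, and 431, 182, 251 and 625 without WT 1 to 4). The 3 member calls became 8 after centring (8 higher, 0 lower), 7 with means under 6 left out, 5 with the lower 30% left out, 10 with a variance trend and 0 with agreeing arrays counted once, and 2 to 6 when 1 array was left out (6 without WT 4). No called member changed sign in any of the 20 settings. Of the 62, 25 changed sign in at least 1, the largest of them with a size of 0.07. The causes were not tested.

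Replicate numbers are shared by the genotypes, and the deviations of same-numbered arrays had correlations of 0.070, 0.10, −0.065 and 0.19. The SPAK KO arrays deviated so little from each other that this check could not exclude a pairing. The labels name no pairing, so the numbers were not taken as pairs. With the replicate block, 174 genes and 2 members passed.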
